A study of Mus musculus with 9 samples.

Results

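The data describe 96 genes whose RNA rose within the first day of spermatogonial stem cell (SSC) differentiation and fell back during the second day. They were chosen among 46078 genes by their mean CPM, the counts of a gene per 1000000 counts of its library. A member had a 24 h mean of at least 5 CPM, at least 2 times its 0 h mean and at least 1.5 times its 48 h mean. Of the 11936 genes with such a 24 h mean, 106 passed both ratios, and 10 of these were set aside by name: Stra8, Kit, Rec8, Cyp26a1, Rarb, Amh, Aurkc, Col4a4, Col2a1 and Col27a1. All 96 members are annotated as protein coding.

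The cells were EGFP-SSCs, a cultured mouse line of wild-type genotype that carries green fluorescent protein. RNA-seq was carried out on 3 biological replicates per time, and the times were 0 h, 24 h and 48 h. The 0 h cells came from normal culture on mitomycin C-treated mouse embryonic fibroblasts with GDNF, epidermal growth factor and basic fibroblast growth factor. The 24 h and 48 h cells had been mixed with an equal part of somatic cells from the testes of busulfan-treated mouse pups, in medium with retinoic acid, BMP-4/7, activin A, testosterone, FSH and BPE, and EGFP-positive cells were then sorted. All 9 libraries thus derive from 1 line, and change of medium, co-culture and time cannot be told apart. The study describes flow sorting of SSCs from different culture stages for RNA-seq, while the labels do not say that the 0 h cells were sorted. Library totals ran from 16825251 to 22201892 counts. The 0 h libraries differed most from each other, with a chi-square over degrees of freedom of 35.5 to 81.4 between pairs, against 7.97 to 13.4 at 24 h and 7.13 to 26.0 at 48 h. In bulk RNA, fewer cells of a type and less RNA per cell cannot be told apart.

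Retinoic acid drives undifferentiated spermatogonia into differentiation through nuclear receptors that bind DNA directly, while GDNF sustains their self-renewal. Genes that respond to a change of signal can settle at a new level or peak and decline. A well-known transient programme is the interferon response, in which receptors signal through JAK kinases, STAT factors and IRF9 to switch on antiviral genes that share a DNA element, the interferon-stimulated response element.

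The members had low to moderate RNA levels, with 24 h means of 5.03 to 531 CPM and a median of 14.8. Their summed level was 1017, 1150 and 1246 CPM in the 0 h libraries, 3542, 3383 and 3305 CPM at 24 h, and 1890, 2003 and 1826 CPM at 48 h. The 3 times do not overlap in this sum, and the 48 h libraries lay between the others. The median ratio of 24 h to 0 h means was 3.19, and the median ratio of 24 h to 48 h means was 1.86. These means chose the genes, so the ratios are a description. In 93 members every 24 h library lay above all 0 h and 48 h libraries, a pattern seen in 9.53% of genes with a 24 h mean of at least 5 CPM. The exceptions were Gja1, Spata33 and Plxnc1, in which at least 1 library overlapped. The count of 93 follows largely from the rule, which used the same libraries, so nothing is read from it.

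**Figure D1:**
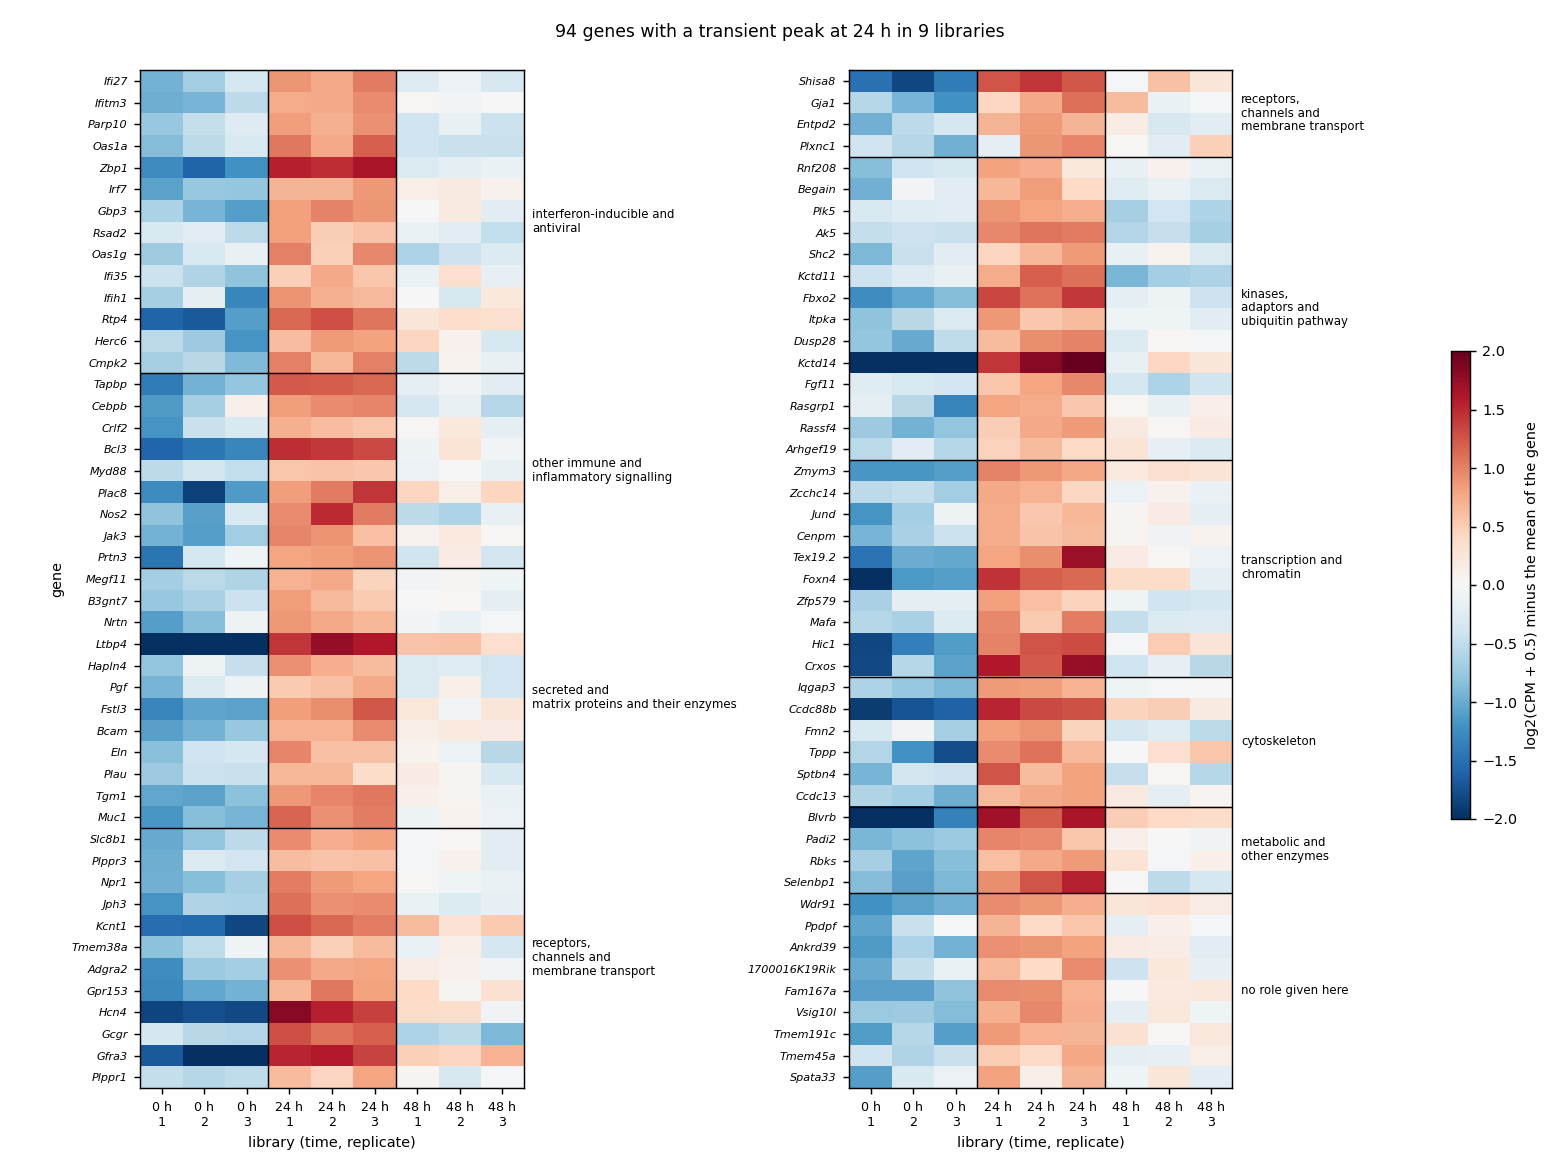
Heat map of 94 of the 96 members (rows, grouped by role) in the 9 libraries (columns, by time and replicate). Colour gives log2(CPM + 0.5) minus the mean of the gene over the libraries, cut at 2 in both directions. The 24 h columns are red throughout except Plxnc1 in replicate 1, the 0 h columns are mostly blue, and the 48 h columns lie between.

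Each gene was also fitted across all genes with the quasi-likelihood test of edgeR, at a Benjamini-Hochberg adjusted p of up to 0.05. All 96 members passed the filter on low counts in all 3 comparisons. At 24 h against 0 h, 95 members were called higher, where 11.4% of all genes tested were called higher. At 48 h against 24 h, 91 were called lower, where 12.7% of all genes were. Both calls were made for 91 members and for 2.49% of the genes tested in both comparisons. The rule used both contrasts, and they share the 24 h libraries, so nothing is read from these counts. Members not called lower at 48 h were Gja1, Tppp, Arhgef19, Plxnc1 and Spata33, and Spata33 was not called higher at 24 h either.

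The rule was also repeated on 2 replicate numbers, and the third, which had no part in choosing that set, was read. With replicates 2 and 3, the rule chose 103 genes, and 64.1% of them met both ratios in replicate 1, against 1.67% of all genes with a sufficient 24 h mean in the choosing libraries. With replicates 1 and 3, it chose 131 genes, of which 51.1% met both ratios in replicate 2 (background 1.21%). With replicates 1 and 2, it chose 119 genes, of which 48.7% met both ratios in replicate 3 (background 0.98%). The left-out 24 h library was the highest of its number for 95.1%, 96.9% and 89.1% of the chosen genes, against 39.2%, 31.8% and 28.8% in the background. In each round the chosen genes met both ratios more often than the background, at 48.7% to 64.1%. The 3 rounds are not independent, since each replicate number chose in 2 of them and 81 to 88 of the chosen genes were members. The left-out 24 h library also stands in both ratios. The shares therefore describe how alike the replicate libraries of a time were in this line, and nothing more is read from them.

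The thresholds were not natural breaks. Plxnc1, Arhgef19 and Prtn3 entered with 24 h means of 5.03, 5.27 and 5.49 CPM, and Larp6, Hba-a1 and Rhox4a2 stayed out with 4.72, 4.71 and 4.45 CPM. Ppdpf, Zfp579 and Begain entered with 24 h to 0 h ratios of 2.007, 2.011 and 2.065, and Rasl10b, Uba7 and Ccs stayed out with 1.983, 1.977 and 1.963. Plxnc1, Ppdpf and Arhgef19 entered with 24 h to 48 h ratios of 1.501, 1.503 and 1.508. Elavl3 and Fam196a stayed just out, and Dnmt3b, a DNA methyltransferase at 136, 283 and 189 CPM on average at 0 h, 24 h and 48 h, did so with 1.496.

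**Figure D2:**
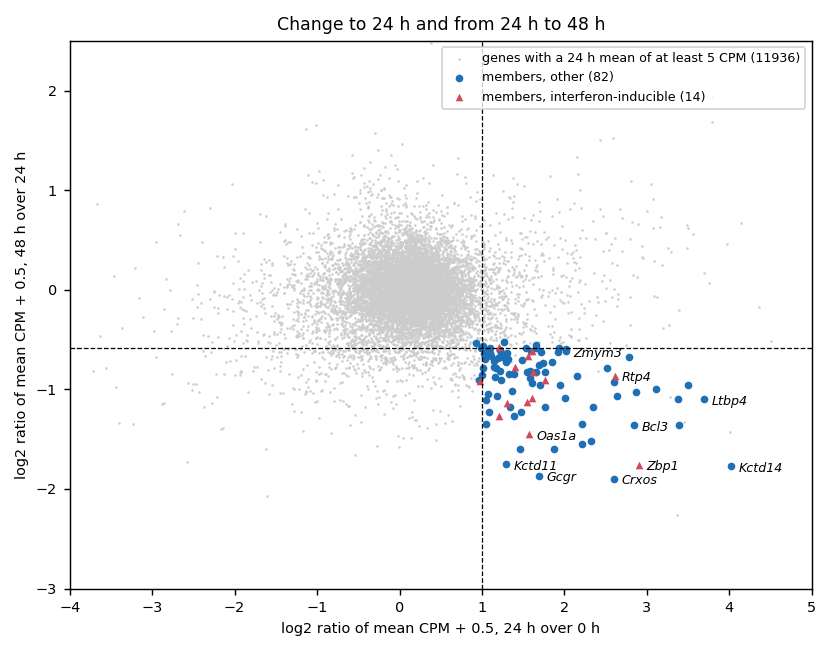
Log2 ratios of mean CPM + 0.5 for 24 h over 0 h (x axis) and 48 h over 24 h (y axis) of 11936 genes (grey), with 82 members in blue and 14 interferon-inducible members as red triangles. Dashed lines mark ratios of 2 and 1/1.5, and some members cross them because 0.5 CPM was added here and not in the rule. Kctd14 lies farthest to the right, Crxos and Gcgr lowest, and 14 grey genes fall outside the axes.

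Among the members were 14 interferon-inducible and antiviral genes: Ifi27, Ifitm3, Parp10, Oas1a, Oas1g, Zbp1, Irf7, Gbp3, Rsad2, Cmpk2, Ifi35, Ifih1, Rtp4 and Herc6. This grouping was made after the members were known, so its size is a description. Summed over the 14 genes, the mean level was 118 CPM at 0 h, 362 CPM at 24 h and 171 CPM at 48 h.

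Ifi27, an interferon-inducible gene, was at 36.0, 43.0 and 54.9 CPM in the 0 h libraries, 130, 119 and 144 CPM at 24 h, and 58.1, 64.4 and 56.0 CPM at 48 h. Its lowest 24 h library was far above the highest of the other times. On the log2 scale, the change was 1.44 (standard error 0.18) to 24 h and -1.13 (0.09) from 24 h to 48 h. Ifitm3, which encodes a membrane protein that hinders the entry of enveloped viruses, was at 13.9, 14.4 and 19.2 CPM, then 47.0, 47.8 and 54.3 CPM, then 28.8, 27.0 and 27.9 CPM. The 3 times were separate in Ifitm3, with 48 h still above 0 h. Per length, Ifi27 and Ifitm3 were the most abundant of the 14 genes at 24 h, with mean levels of 89.2 and 73.3 RPKM (CPM per kilobase of exon), and Herc6 was the least abundant at 0.850 RPKM.

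Zbp1, which encodes a sensor of Z-form nucleic acids, had the largest ratio of the 14 genes. It was at 2.20, 1.65 and 2.29 CPM at 0 h, 18.6, 17.6 and 19.6 CPM at 24 h, and 4.82, 5.18 and 5.44 CPM at 48 h. Within each time the libraries lay close together, and the times were separate. In log2 terms it rose by 3.07 (standard error 0.19) and fell by 1.84 (0.12), a description like the other fold changes of the members. Rtp4, another interferon-inducible gene, was at 0.773, 0.705 and 1.31 CPM, then 8.07, 8.94 and 7.63 CPM, then 4.07, 4.46 and 4.32 CPM. It lost 54.0% of its rise by 48 h, where Zbp1 lost 81.2%.

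Irf7 and Ifih1 act within the interferon pathway itself. Irf7, a transcription factor of type I interferon genes, was at 4.34, 5.50 and 5.42 CPM at 0 h, 15.8, 15.8 and 18.1 CPM at 24 h, and 10.6, 11.0 and 10.3 CPM at 48 h. Ifih1, which encodes the sensor of long double-stranded RNA also called MDA5, was at 2.85, 4.18 and 1.64 CPM, then 9.36, 8.17 and 7.77 CPM, then 4.77, 3.74 and 5.64 CPM. Its 0 h and 48 h libraries overlapped, while those of Irf7 did not. Without any 1 of the 24 h libraries, Ifih1 was no longer called at 24 h against 0 h, with adjusted p from 0.0523 to 0.0657 by edgeR. With all 9 libraries in 1 fit, its fall from 24 h to 48 h was not called (adjusted p = 0.147, edgeR).

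The oligoadenylate synthetase genes Oas1a and Oas1g returned to their starting level. These enzymes respond to double-stranded RNA and make the activator of RNase L. Oas1a was at 8.08, 10.2 and 12.2 CPM at 0 h, 32.2, 25.9 and 35.5 CPM at 24 h, and 11.4, 10.9 and 11.0 CPM at 48 h. Oas1g was at 2.73, 3.76 and 4.25 CPM, then 10.1, 6.83 and 9.79 CPM, then 2.94, 3.47 and 3.86 CPM. In both, the 48 h values lay inside the range of the 0 h values. The genes neighbour each other on chromosome 5, and 100% of the Oas1a transcript and 94.1% of the Oas1g transcript match other genes over windows of 75 bases, so the counts of each are uncertain. Rsad2 and Cmpk2, a radical SAM enzyme and a nucleotide kinase gene 12752 bases apart on chromosome 12, also fell. Rsad2 was at 4.52, 4.89 and 3.83 CPM, then 10.5, 8.22 and 8.71 CPM, then 5.14, 4.82 and 3.91 CPM. Cmpk2 was at 2.14, 2.35 and 1.78 CPM, then 7.96, 6.17 and 7.97 CPM, then 2.41, 3.92 and 3.30 CPM. Both had their 24 h libraries well above the rest, and at 48 h Rsad2 overlapped its 0 h libraries while Cmpk2 stayed above all of its own.

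Parp10, a mono-ADP-ribosyltransferase gene, was at 14.1, 17.4 and 20.2 CPM, then 43.4, 40.2 and 46.0 CPM, then 18.3, 21.8 and 17.9 CPM, with 0 h and 48 h overlapping. Gbp3, which encodes a guanylate-binding protein, was at 4.34, 3.43 and 2.99 CPM, then 12.7, 14.3 and 13.3 CPM, then 6.96, 7.93 and 5.89 CPM, with 48 h above 0 h in all libraries. Ifi35 and Herc6 fell from 24 h to 48 h by less certain amounts, at -0.60 (standard error 0.17) and -0.72 (0.20) in log2 terms. As with Ifih1, neither was called lower at 48 h with all 9 libraries in 1 fit (adjusted p = 0.109 and 0.137, edgeR).

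**Figure D3:**
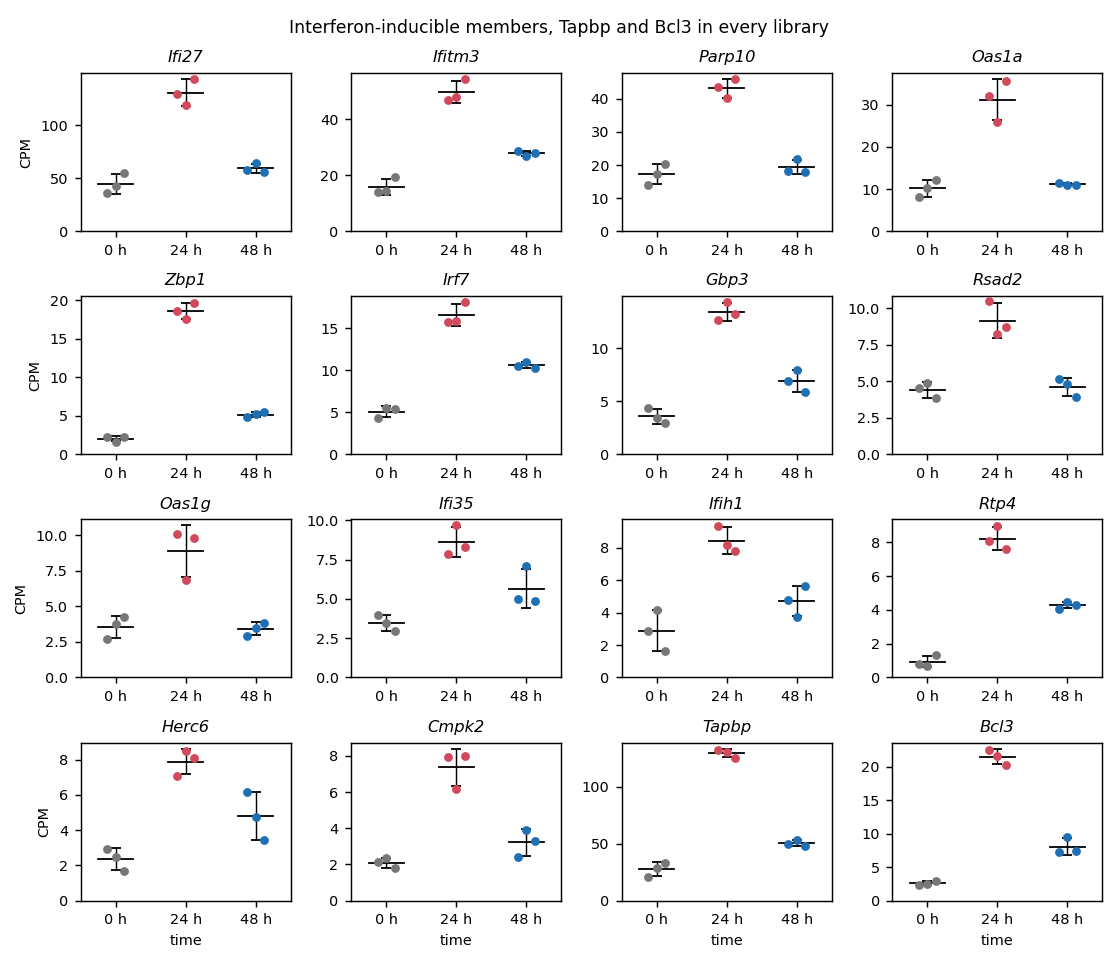
CPM in every library (points, by time and replicate order) of the 14 interferon-inducible members and of Tapbp and Bcl3, with the mean (long line) and SD (bar, n = 3). In each panel the 24 h points lie above all points of 0 h and 48 h. The 48 h points stay above the 0 h points except in Parp10, Oas1a, Oas1g, Rsad2 and Ifih1, where they overlap.

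The promoters of these genes were searched for the core of the interferon-stimulated response element, which many genes of the class carry. The core was read as GAAANNGAAA on either strand, from 250 bases before to 50 bases after each RefSeq start (build GRCm38.p6). Of the 76 members with a RefSeq window, 10 held it (13.2%), and so did 3.99% of all 27025 genes with a window. Of the 10 interferon-inducible members with a window, 6 held it (60.0%): Ifih1, Gbp3, Oas1a, Oas1g, Ifitm3 and Rsad2. The other 66 members held it in 4 cases (6.06%): Itpka, Myd88, Plxnc1 and Tgm1. This motif and the grouping were both chosen after the members were known, and a match is not shown to be bound. The sites below show where the letters lie, with the core in capitals, read 5′ to 3′ on the strand of the gene.
Ifih1: gaagagaatcGAAACAGAAAccgatctg
Gbp3: caggacacagTTTCAGTTTCtatttcccag
Oas1a: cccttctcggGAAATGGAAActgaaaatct
Ifitm3: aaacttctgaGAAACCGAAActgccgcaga
Rsad2: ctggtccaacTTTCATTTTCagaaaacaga
The Ifih1 site lies at chr2:62646206-62646233 on the minus strand, with its core 32 to 41 bases after the start. The Gbp3 site lies at chr3:142559989-142560018 on the plus strand, and its core appears as the opposite strand, at -45 to -36, with the further match at -39 to -30. The Oas1a site lies at chr5:120907526-120907555 on the minus strand, at -20 to -11, with the further match at -14 to -5. Oas1g holds the same 30 bases at chr5:120887612-120887641, at -18 to -9, with the further match at -12 to -3. The Ifitm3 site lies at chr7:141010706-141010735 on the minus strand, 19 to 28 bases after the start, with the further match 2 to 11 bases after it. The Rsad2 site lies at chr12:26456553-26456582 on the minus strand, at -120 to -111, and its core also appears as the opposite strand.

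To see how far the pattern reached beyond the members, 51 interferon-stimulated genes were listed from general knowledge, with the members already known. At 24 h against 0 h, 34 of the 51 were called higher and 4 lower, where 11.4% and 14.2% of all genes tested were called. At 48 h against 24 h, 30 were called lower and 2 higher, where 12.7% and 8.61% of all genes were. These counts hold the 14 members chosen for this rise and fall. Among the 37 genes of the list that are not members, 20 were called higher at 24 h and 4 lower, 16 were called lower at 48 h and 2 higher, and 9 rose and then fell. The median log2 fold change of these 37 genes was 0.78 and then -0.27, and over all genes tested it was 0.01 and -0.00453. With all 9 libraries in 1 fit, 18 of the 51 genes were called lower at 48 h.

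Several of the best-known genes of the class rose and stayed up. Isg15, a ubiquitin-like modifier, was at 1.13, 1.88 and 1.26 CPM at 0 h, 10.8, 10.8 and 12.8 CPM at 24 h, and 11.8, 9.82 and 8.89 CPM at 48 h, so its 24 h and 48 h libraries overlapped. Ifit1, which encodes a binder of viral RNA, was at 0.951, 1.03 and 0.795 CPM, then 5.74, 5.55 and 5.36 CPM, then 7.28, 5.81 and 8.69 CPM, with the 48 h libraries all above 24 h. Neither differed between 48 h and 24 h past the threshold (adjusted p = 0.422 and 0.144, edgeR). Oasl2, a member of the oligoadenylate synthetase family, was at 7.84, 8.84 and 7.90 CPM, then 59.9, 56.6 and 56.7 CPM, then 38.0, 37.6 and 41.6 CPM. It fell by 0.56 on the log2 scale (standard error 0.08, adjusted p = 0.00156, edgeR), short of the ratio the rule asked for.

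Irf9, a core factor of the signal chain, showed a smaller peak. It was at 14.0, 16.0 and 14.5 CPM, then 31.5, 31.6 and 28.2 CPM, then 23.1, 25.2 and 25.1 CPM, and its 3 times did not overlap. It rose at 24 h (log2 fold change of 0.92, adjusted p = 0.00133, edgeR) and fell at 48 h (by 0.31, adjusted p = 0.0231). Samhd1, a nucleotide hydrolase gene of the same class, went the other way, from 188, 192 and 176 CPM to 92.0, 93.3 and 80.2 CPM and then 71.0, 73.7 and 75.8 CPM. The 21 interferon ligand genes together reached at most 0.360 CPM in any library, and none passed the filter on low counts. Of 18 interferon receptor and signal chain genes tested, 2 rose and 4 fell past the threshold at 24 h, where 11.4% and 14.2% of all genes did, and Myd88, among those that rose, was the only member on that list.

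**Figure D4:**
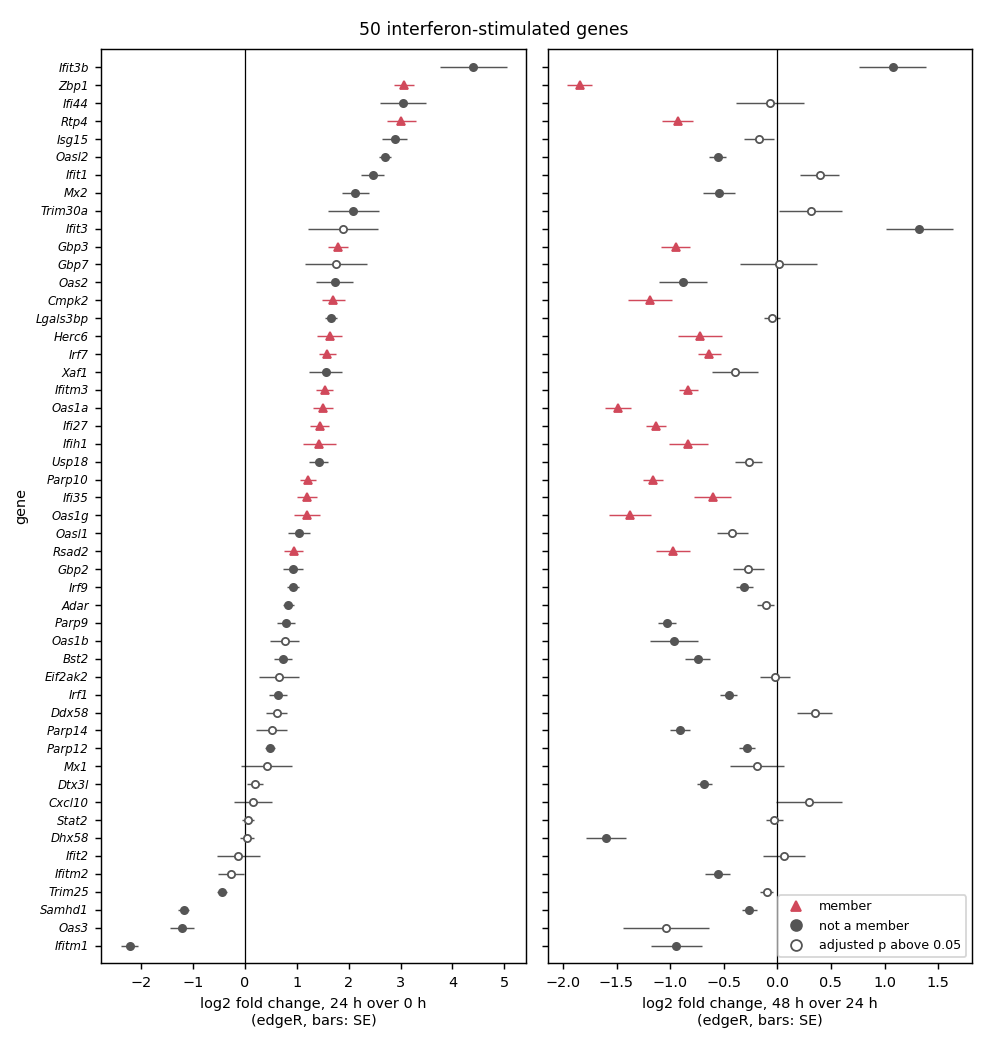
Log2 fold changes of 50 of the 51 interferon-stimulated genes (rows, sorted by the left panel) for 24 h over 0 h (left) and 48 h over 24 h (right), with standard errors from edgeR. Red triangles are the 14 members, grey circles the other 36 genes, and open symbols have an adjusted p above 0.05. Most genes lie right of 0 in the left panel and left of 0 in the right panel, with Ifit3 and Ifit3b rising in both.

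The second group holds 9 genes of immune and inflammatory signalling outside that list. Tapbp encodes tapasin, which loads peptides onto MHC class I molecules. It was at 21.1, 28.9 and 32.7 CPM at 0 h, 133, 131 and 125 CPM at 24 h, and 49.5, 53.6 and 48.2 CPM at 48 h, a log2 change of 2.12 (standard error 0.17) and then of -1.36 (0.06). The times were far apart, although 25.3% of its transcript matches other genes and an antisense gene lies across it, whose reads cannot be told apart without strand. In a list of 21 genes of MHC class I presentation, written with the members known, 9 genes rose and 2 fell at 24 h past the threshold (edgeR), where 11.4% and 14.2% of all genes did, and 13 fell at 48 h, where 12.7% did. Tapbp itself, chosen for this pattern, is among those that rose and those that fell. At 48 h against 0 h, 6 genes of the list were called higher and 5 lower, where 13.0% and 18.5% of all genes were. H2-K1 and H2-D1, classical MHC class I genes that have close copies, peaked on average at 92.0 and 76.9 CPM and were at 57.9 and 39.1 CPM at 48 h.

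Bcl3, which encodes an atypical I-kappa-B protein that binds NF-kappa B, was at 2.26, 2.54 and 2.85 CPM, then 22.5, 21.7 and 20.3 CPM, then 7.23, 9.50 and 7.47 CPM. The 3 times were separate in Bcl3, and the rise to 24 h was 2.95 (standard error 0.16) in log2 terms. Cebpb, a transcription factor gene of acute inflammation, was at 13.6, 19.2 and 32.8 CPM, then 55.1, 59.5 and 60.5 CPM, then 24.1, 27.4 and 20.5 CPM. Its 0 h libraries spanned the 48 h values, and without 0 h replicate 2 or any 1 of the 24 h libraries its rise was not called (adjusted p from 0.0529 to 0.0772, edgeR). Nos2, inducible nitric oxide synthase, was at 1.25, 0.940 and 1.96 CPM, then 5.38, 8.05 and 5.76 CPM, then 1.61, 1.49 and 2.24 CPM, and so lost 92.2% of its rise. The remaining members of the group were Crlf2, Myd88, Plac8, Jak3 and Prtn3, with ratios of 24 h to 0 h means between 2.08 (Myd88) and 6.60 (Plac8). A NF-kappa B list that includes Bcl3, Nos2 and Myd88 held 29 tested genes. Of these, 10 rose and 3 fell at 24 h, where 11.4% and 14.2% of all genes did. At 48 h against 24 h, 7 moved each way, where 12.7% of all genes fell and 8.61% rose. The members Bcl3, Nos2 and Myd88 are among the genes counted as rising and falling.

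Among secreted and matrix proteins and their enzymes, 13 genes peaked at 24 h. Plau, which encodes the protease urokinase, was at 2.97, 3.76 and 3.74 CPM, then 8.58, 8.55 and 6.94 CPM, then 5.94, 5.45 and 4.12 CPM. Its 24 h libraries all lay above the others. Ltbp4, a binding protein of latent TGF-beta, had the largest ratio of the group at 17.2, from 1.43, 1.36 and 1.36 CPM to 21.2, 26.6 and 23.7 CPM, and stayed at 11.4, 11.5 and 9.60 CPM at 48 h. Fstl3, a follistatin-like antagonist of activin, was at 1.54, 1.93 and 1.92 CPM, then 8.48, 9.16 and 11.5 CPM, then 5.41, 4.37 and 5.49 CPM, and 59.2% of its transcript is shared with Prss57 on the opposite strand. Nrtn, a ligand of the GDNF family, was at 7.55, 9.07 and 15.6 CPM, then 31.2, 28.8 and 27.0 CPM, then 16.1, 15.2 and 16.3 CPM. Of the others, Megf11, B3gnt7, Hapln4, the placental growth factor gene Pgf, Bcam, the elastin gene Eln, the transglutaminase gene Tgm1 and the mucin gene Muc1, had ratios from 2.12 (Pgf) to 5.20 (Muc1).

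Receptors, channels and membrane transport proteins made up 16 members. Gfra3, a receptor of the GDNF family, was at 1.72, 1.08 and 1.03 CPM, then 19.9, 20.9 and 17.7 CPM, then 9.37, 9.05 and 11.0 CPM. Hcn4, a pacemaker channel gene, was at 1.72, 1.83 and 1.78 CPM, then 27.4, 22.7 and 20.0 CPM, then 9.69, 9.64 and 7.06 CPM. In both, the 48 h libraries kept several times the 0 h level. Shisa8, a gene of a receptor-associated membrane protein, was at 1.31, 0.940 and 1.45 CPM, then 11.7, 13.3 and 11.6 CPM, then 4.50, 7.16 and 5.54 CPM, with all times separate. Gcgr, the glucagon receptor gene, instead fell back fully, from 7.07, 6.11 and 5.94 CPM to 23.1, 20.1 and 21.8 CPM and then to 5.84, 6.17 and 4.73 CPM. Kcnt1, a potassium channel gene, kept the most, losing 43.5% of its rise with 48 h values of 25.2, 19.9 and 23.4 CPM against 5.29, 5.17 and 4.21 CPM at 0 h. Slc8b1, the mitochondrial sodium-calcium exchanger gene, was the most abundant of the group, at 107, 92.1 and 96.5 CPM at 24 h. Npr1, Jph3, Plppr1, Plppr3, Tmem38a, Adgra2, Gpr153, Entpd2, Gja1 and Plxnc1 had ratios of 24 h to 0 h means from 2.09 (Tmem38a) to 4.07 (Gpr153).

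Kinases, adaptors and genes of the ubiquitin pathway counted 14, and this group held the largest ratio. Kctd14, which encodes a protein with a potassium channel tetramerisation domain, was counted no more than 2 times in any 0 h library and no fewer than 118 times in any 24 h library. Against a floor of 3 counts per library, it was at least 58.9-fold higher at 24 h, at 6.10, 8.17 and 12.8 CPM, and it was at 1.71, 2.75 and 2.39 CPM at 48 h. Kctd11, which encodes a related adaptor, was the member whose 48 h level lay furthest below its starting level, at 4.52, 5.08 and 5.52 CPM, then 10.7, 14.8 and 13.8 CPM, then 3.05, 3.69 and 3.86 CPM. Fbxo2, an F-box gene of a ubiquitin ligase, was at 1.60, 1.93 and 2.24 CPM, then 12.1, 10.1 and 12.8 CPM, then 3.85, 4.14 and 3.25 CPM. Plk5, a polo-like kinase family gene, Ak5, an adenylate kinase gene, and Fgf11, an intracellular fibroblast growth factor gene, ended below their 0 h means, with ratios of 48 h to 0 h means of 0.803, 0.907 and 0.891. Rnf208, Begain, Shc2, Itpka, Dusp28, Rasgrp1, Rassf4 and Arhgef19 had ratios of 24 h to 0 h means from 2.07 (Begain) to 3.38 (Dusp28).

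Transcription and chromatin genes were 10, and held the most abundant members. Zmym3, a zinc finger gene on the X chromosome, was at 128, 128 and 135 CPM at 0 h, 571, 528 and 494 CPM at 24 h, and 328, 361 and 347 CPM at 48 h. Zcchc14, which encodes a zinc finger protein of RNA metabolism, was at 231, 240 and 206 CPM, then 564, 539 and 445 CPM, then 308, 353 and 303 CPM. In each of them the times were separate. Jund, a subunit of the AP-1 factor, had the highest level per length of all members (120 RPKM at 24 h), but its 0 h libraries spread from 56.0 to 118 CPM against 213, 184 and 202 CPM at 24 h. An antisense gene lies across 52.6% of its exons. Crxos, a homeobox gene, had the largest ratio of 24 h to 48 h means among the members, 4.36, with 9.77, 7.44 and 10.9 CPM at 24 h and 2.09, 2.52 and 1.83 CPM at 48 h. The rest were Cenpm, a centromere protein gene, Tex19.2, a germ cell gene, the factors Foxn4, Mafa and Zfp579 and the repressor Hic1, with ratios of 24 h to 0 h means from 2.01 (Zfp579) to 7.91 (Hic1).

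The remaining members were 7 genes of the cytoskeleton, 4 of metabolic enzymes and 9 given no role here. Blvrb, the biliverdin reductase B gene, was at 1.25, 1.41 and 2.81 CPM, then 26.4, 18.9 and 25.5 CPM, then 11.3, 10.7 and 10.4 CPM. Selenbp1, a selenium-binding protein gene, was at 1.07, 0.846 and 1.03 CPM, then 4.96, 6.33 and 7.82 CPM, then 2.36, 1.49 and 1.73 CPM, and its transcript matches Selenbp2 over its whole length, so its counts are uncertain. Iqgap3, which encodes a scaffold of the actin cytoskeleton, was at 24.0, 21.6 and 19.7 CPM, then 67.2, 66.1 and 60.0 CPM, then 34.9, 35.8 and 37.4 CPM. Each of the 3 genes had its 24 h libraries clear of the others. Ccdc88b rose from 1.11 to 13.5 CPM on average, Wdr91, an endosomal protein gene, from 29.1 to 112 CPM, and Ppdpf from 29.7 to 59.5 CPM. The cytoskeletal genes Fmn2, Tppp, Sptbn4 and Ccdc13 had ratios of 24 h to 0 h means of 2.25 to 5.27, and the enzyme genes Padi2 and Rbks of 3.38 and 3.48. Ankrd39, 1700016K19Rik, Fam167a, Vsig10l, Tmem191c, Tmem45a and Spata33 had ratios of 2.16 (Spata33) to 3.95 (Fam167a).

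How far the members came back differed among them. As a share of the rise from the 0 h to the 24 h mean, the loss by 48 h ran from 43.5% (Kcnt1) to 119% (Kctd11), with a median of 67.3%. By this measure 7 members lost under 50%, and 16 lost at least 90%, among them Oas1a, Oas1g, Rsad2, Parp10, Cebpb, Nos2 and Gcgr. The 7 members that lost at least 100% were Kctd11, Plk5, Fgf11, Gcgr, Ak5, Fmn2 and Oas1g. Interferon-inducible members lost 51.7% to 103%, with a median of 72.9%, within the range of the other groups.

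The rule asked for a greater distance of 24 h from 0 h (2 times) than from 48 h (1.5 times), which favours members with 48 h above 0 h. The 48 h and 0 h levels are therefore a description, and nothing is read from the counts. At 48 h against 0 h, 46 of the 96 members were called higher, where 13.0% of all genes tested were, and 50 were not called. None was called lower, where 18.5% of all genes were. The count of 0 is from edgeR and DESeq2 alike, and 2 members were lower at an unadjusted p under 0.05 in edgeR (Plk5 and Kctd11). Both were called lower with all 9 libraries in 1 fit, and Kctd11 without 0 h replicate 1. Without 48 h replicate 1, the count of members called higher was 27. Among the members called higher in edgeR were Ltbp4 (log2 fold change 2.86), Hcn4 (2.19), Zmym3 (1.30) and Tapbp (0.76). By role, 5 of the 14 interferon-inducible members were called higher at 48 h than at 0 h, as were 9 of 16 receptors, channels and membrane transport genes and 3 of 14 kinases, adaptors and ubiquitin pathway genes.

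The members were richer in G and C than other genes. The median GC content of their exons was 56.4%, against 49.9% for 11910 annotated genes with a 24 h mean of at least 5 CPM, and when these genes were cut into 5 equal groups by GC content, 52 of the 96 lay in the highest. Members made up 2.18% of that group and 0.21% of the lowest. The interferon-inducible members differed in this, with a median of 51.3% and 1 of 14 in the highest group, while the other members had a median of 57.0%. All genes moved slightly in the same way, since the median log2 ratio of 48 h to 24 h means was 0.16 in the lowest group and -0.17 in the highest. With a correction for GC content and length, added after this was seen, the rule chose 72 genes, 65 of them among the 96 and 11 of them on the interferon list. It lost 31 of the 96 members. With such offsets in the edgeR fits, 96 members were called higher at 24 h and 88 lower at 48 h against 24 h. The members were chosen on these contrasts in the same libraries, so nothing is read from these counts. What part GC content had in the choice beyond these values was not tested.

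**Figure D5:**
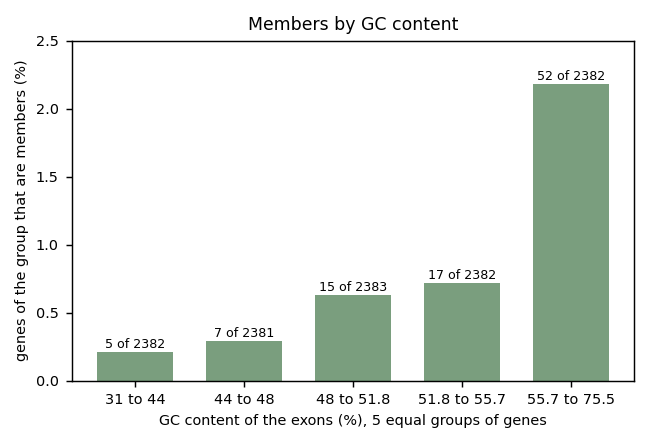
Share of genes that are members (y axis, %) in 5 equal groups of genes by GC content of the exons (x axis, %), with counts above the bars. The share rises from 0.21% in the lowest group to 2.18% in the highest.

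Other motifs were counted in the same promoter windows, and members held some more often and some less often than all genes. All genes here are the 27025 with a window, whatever their RNA level. The members had at least 5 CPM at 24 h and were richer in G and C. Motifs were not compared at equal RNA level or GC content, so nothing about the peak is read from these shares. The GC box GGGCGG on either strand was in 68.4% of the 76 members with a window and in 38.2% of all genes, and in 2 of the 10 interferon-inducible members. The element GGCGCC, which BMP-activated SMAD factors bind, was in 23.7% of members and 13.4% of all genes, and the motif CNCCTCAG of STRA8 in 11.8% and 9.12%. The SMAD box GTCTAGA was in 3.95% of members (3 genes) and 2.51% of all genes. The E-box CACGTG was in 2.63% of members (2 genes) and 8.09% of all genes, and the cyclic AMP response element core TGACGTC in 1.32% (1 gene, Irf7) and 3.6%. The retinoic acid response element DR5 was read as a direct repeat of the half-site RGKTCA (R is A or G, K is G or T) with 5 bases between. A match was in 1 member, Blvrb, and in 0.115% of all genes. With AGGTCA half-sites only, DR5 was in 0 members and 0.0111% of all genes. The Blvrb match, which is not shown to be bound, is given because retinoic acid was in the medium. It is in capitals and appears as the opposite strand.
Blvrb: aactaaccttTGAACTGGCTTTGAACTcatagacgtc
This stretch lies at chr7:27452389-27452425 on the plus strand, with the element at -19 to -3 from a RefSeq start. It lies within the gene as GENCODE gives it (27447978 to 27466144), downstream of the first start. The variant with 2 bases between the half-sites (DR2) was in none of the 76 members and in 0.311% of all genes.

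Some members are neighbours. Ltbp4, Sptbn4 and Blvrb follow each other on chromosome 7, with gaps of 18691 and 292 bases, and all peaked at 24 h. Fstl3, Plppr3 and Prtn3 lie within 1 stretch of chromosome 10, where Plppr3 and Prtn3 overlap by 158 bases. Fgf11 and Kctd11, Shisa8 and Cenpm, Bcam and Bcl3, and Zcchc14 and Jph3 also lie within 100000 bases of each other. Over 10% of the transcript matched other genes in 16 members, so that some of their reads may belong elsewhere.

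No member was on any of the 12 pathway lists and 7 marker lists drawn up from general knowledge, which follows in part from the names set aside. Of the genes past the 3 thresholds that were set aside by name, 4 were on the retinoic acid list. The list of differentiating spermatogonia and meiotic entry held 3, and those of meiotic prophase and of Sertoli markers held 1 each. In the retinoic acid list, 14 of 21 genes tested were called higher at 24 h and 1 lower, where 11.4% and 14.2% of all genes were. At 48 h against 24 h, 9 of 22 were called lower and 0 higher, where 12.7% and 8.61% of all genes were. This list holds the 4 genes set aside by name that had passed the 3 thresholds. Markers of other cells moved with time in the same libraries. The 8 peritubular myoid markers summed to 36.3 to 39.5 CPM at 0 h, 204 to 255 CPM at 24 h and 340 to 394 CPM at 48 h, with Acta2 and Tagln in the lead, and the 12 stromal markers to 712 to 817, 1010 to 1243 and 1454 to 1501 CPM. These sums rose further at 48 h, when the members fell. The 12 Sertoli markers summed to 48.9 to 57.1, 91.9 to 142 and 129 to 145 CPM, with Fshr at or near 0, and the 8 Leydig markers to 4.30 to 6.68, 30.2 to 45.8 and 30.4 to 38.1 CPM, with Lhcgr at or near 0. The Sertoli markers did not move as 1: of 11 tested at 24 h against 0 h, 7 were called higher and 4 lower, where 11.4% and 14.2% of all genes were. The sum of the 8 macrophage markers fell from 16.9 to 21.6 CPM at 0 h to 7.06 to 10.9 CPM at 24 h, with Ptprc, Adgre1 and C1qa below 1 CPM on average at every time, and that of the 8 endothelial markers fell from 68.0 to 74.9 CPM to 29.6 to 38.6 CPM. These lists were split too: 1 of 4 macrophage markers tested was called higher at 24 h and 2 lower. Of 7 endothelial markers tested, 2 were called higher and 4 lower. The 12 germ cell markers summed to 2606 to 3457, 3429 to 3592 and 3374 to 3442 CPM. The part of such cells in the peak of the members was not tested.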

How the data were processed

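RNA-seq libraries were analysed from the deposited counts, whole numbers of reads per Ensembl gene that the authors did not normalize. The labels name fastp, HISAT2, featureCounts and GRCm38, with no versions. Symbols, exons and positions came from GENCODE M21. CPM are counts over the library total, and RPKM divide these by the union of exons. Each comparison used the 6 libraries of its 2 times in edgeR 4.0.16 (R 4.3.3) with filterByExpr, TMM and the two-sided quasi-likelihood test, adjusted after Benjamini and Hochberg over all genes tested. The floor for folds was 3 counts per library, which covers counting error only. The replicate numbers were not treated as pairs, and the labels do not say whether they pair the libraries. The fits were tested on simulated data with 200 changed genes.

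The members and lists were chosen with earlier results of these data known. Role groups, the interferon, MHC class I and NF-kappa B lists and the interferon-stimulated motif were added after the members were seen. Genes named with values are the 10 members highest at 24 h, those with the largest ratios of 24 h to 0 h and 24 h to 48 h, the 5 highest and lowest at 48 h against 0 h, and the groups above, with others named as examples of a role after their values were seen. Matches to other genes were found with BLAST 2.17.0 (identity 97%, windows of 75 bases). Alternatives were DESeq2 1.42.0, other scalings and filters, 1 fit of all libraries, a replicate block, each library left out, and offsets for GC content and length. Figures used matplotlib 3.10.9 in Python 3.11.15. The other experiments of the study were not analysed here. Values of 2 members and of 1 gene of the interferon list are not reported here.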

Additional observations from a re-analysis of the deposited data

How the results depend on the processing

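The rule gave 85 genes with TMM scaling, 83 with DESeq2 size factors and 115 with medians in place of means, of which 84, 83 and 87 were among the 96. It gave 60 genes with a 24 h mean of at least 10 CPM, 3366 with no minimum level and 36 with a 24 h to 48 h ratio of at least 2. Leaving out 1 library gave 92 to 115 genes, leaving out a replicate number at all 3 times gave 103 to 131, and 70 members were kept without each library in turn. The median loss of the rise was 70.8% and 71.7% with the other scalings and 66.5% to 71.1% without 1 library.

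Members called higher at 24 h numbered 90 to 96 under the alternatives with all libraries and 79 to 95 without 1 library. Members called lower at 48 h against 24 h numbered 65 (all 9 libraries in 1 fit) to 96 (no filter), and 83 to 91 without 1 library. At 48 h against 0 h, 27 to 50 were called higher without 1 library, and 0 to 1 lower, with 2 lower in 1 fit of all 9 libraries. Interferon-stimulated genes called lower at 48 h numbered 18 in 1 fit of all 9 libraries. With library size alone, the median log2 fold change over all genes shifted by 0.113 at 24 h and 0.11 at 48 h against 0 h. Deviations of same-numbered libraries had correlations from -0.478 to 0.361, and the labels do not say whether the numbers pair the libraries. With the replicate number as a block, 90 members were called higher at 24 h and 89 lower at 48 h against 24 h. In these fits 36 members were called higher at 48 h against 0 h, and 23 interferon-stimulated genes lower at 48 h. Of 671 values of single genes under the alternatives, 647 kept direction and call, 24 lost the call and 0 reversed. These genes are all members, chosen for their rise and fall in the same libraries, so nothing is read from these counts. The causes of the shifts under the alternatives were not tested. Depth limits the 36 members under 10 CPM at 24 h most.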
